A study of Mus musculus with 14 samples.

Results

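The antiviral restriction factors Bst2, Ifitm2, Ifitm3, Ly6e, Samhd1 and Apobec3 were followed in mouse brain. These 6 genes were taken by symbol from the 13866 genes of the deposited count table, and earlier results of these data were known when they were chosen. All 6 were among the 11852 genes with enough counts to be tested.

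Restriction factors are host proteins that block a virus directly inside or at the surface of the infected cell, and most of them are transcribed at a higher rate when type I interferon reaches its receptor. Signals from interferon receptors activate transcription factors that bind DNA elements called the interferon-stimulated response element (ISRE) and the gamma-activated site (GAS). Interferon itself is made after pattern recognition receptors sense nucleic acid or microbial products, and in brain the microglia are a major site of this sensing. The 6 genes act at different steps of an infection. The Ifitm and Ly6e products sit in membranes and act on virus entry, Samhd1 and Apobec3 act on the synthesis and integrity of retroviral DNA, and the Bst2 product, tetherin, holds finished virus particles at the cell surface.

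Brains of 14 mice aged 19 days were sequenced, with 1 library per mouse. WT mice were C57BL/6JOlaHsd and received PBS (WT + PBS, n = 3) or conduritol B-epoxide (WT + CBE, n = 3), an irreversible inhibitor of the lysosomal enzyme acid beta-glucosidase that models neuronopathic Gaucher disease. MyTrMaSt null mice received PBS (MyTrMaSt + PBS, n = 3) or CBE (MyTrMaSt + CBE, n = 5). In every mouse of that genotype, PBS controls included, Myd88, Ticam1 (TRIF), Mavs and Tmem173 (STING) are inactivated, so that the adaptors of Toll-like receptors, RIG-I-like receptors and STING are missing in all cells, whereas the interferon receptor remains. CBE was given at 100 mg/kg by daily intraperitoneal injection from the second postnatal week. The WT mice were purchased and are not described as littermates of the null mice, so genotype and colony cannot be told apart. The comparisons ask how the factors respond to CBE in each genotype and whether the responses differ.

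Library totals ran from 1290616 counts (WT + PBS replicate 1) to 3704691 (MyTrMaSt + PBS replicate 2), and levels are given as CPM, counts scaled to a common library size. WT + PBS replicate 1 was the shallowest library and stood apart, with a mean distance of 117 from the other libraries of its group on the scale of log2 CPM over all tested genes, where the other two had 80.0 and 79.7. It was kept, and values without it are given where they matter. After CBE, Myd88 gave 45 to 71 counts per WT library but 10 to 22 per MyTrMaSt library, while Ticam1, Mavs and Tmem173 gave counts in both genotypes at overlapping ranges. With PBS, Tmem173 gave 1 to 9 counts per WT library and 18 to 20 per MyTrMaSt library, so that it was not lower in the null mice (log2 1.62, adjusted p = 0.101). A message from a disrupted locus can still contribute reads when its 3' part is intact, so these counts do not check the deletions. Xist, which marks female mice, was at 0 counts in every WT + PBS library and at 32 to 46 in MyTrMaSt + PBS. It varied from 1 to 47 among the WT + CBE libraries and from 0 to 39 among those of MyTrMaSt + CBE. Sex and genotype therefore cannot be told apart among the PBS mice, and sex was not balanced between PBS and CBE in either genotype. Defining markers of brain cells were present throughout. Summed markers of lymphocytes and neutrophils (2 genes each in the table) stayed at or below 3.78 and 5.67 CPM in every library.

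In WT brain, 4 of the 6 factors rose with CBE. Bst2 rose 12.6-fold, Ifitm3 10.7-fold, Apobec3 6.61-fold and Ifitm2 3.44-fold, whereas the higher means of Samhd1 and Ly6e did not pass the test. In MyTrMaSt brain, Ifitm2 and Apobec3 passed, and the responses of Bst2 and Ifitm3 were smaller than in WT by the test of the difference itself. Apobec3 no longer passed without MyTrMaSt + PBS replicate 2 or 3, nor did the Ifitm3 difference with Xist as a covariate. A gene was called changed when its groups differed by 2-fold or more and its p from edgeR's quasi-likelihood test, adjusted by Benjamini-Hochberg over all tested genes, was under 0.05.

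**Figure D1:**
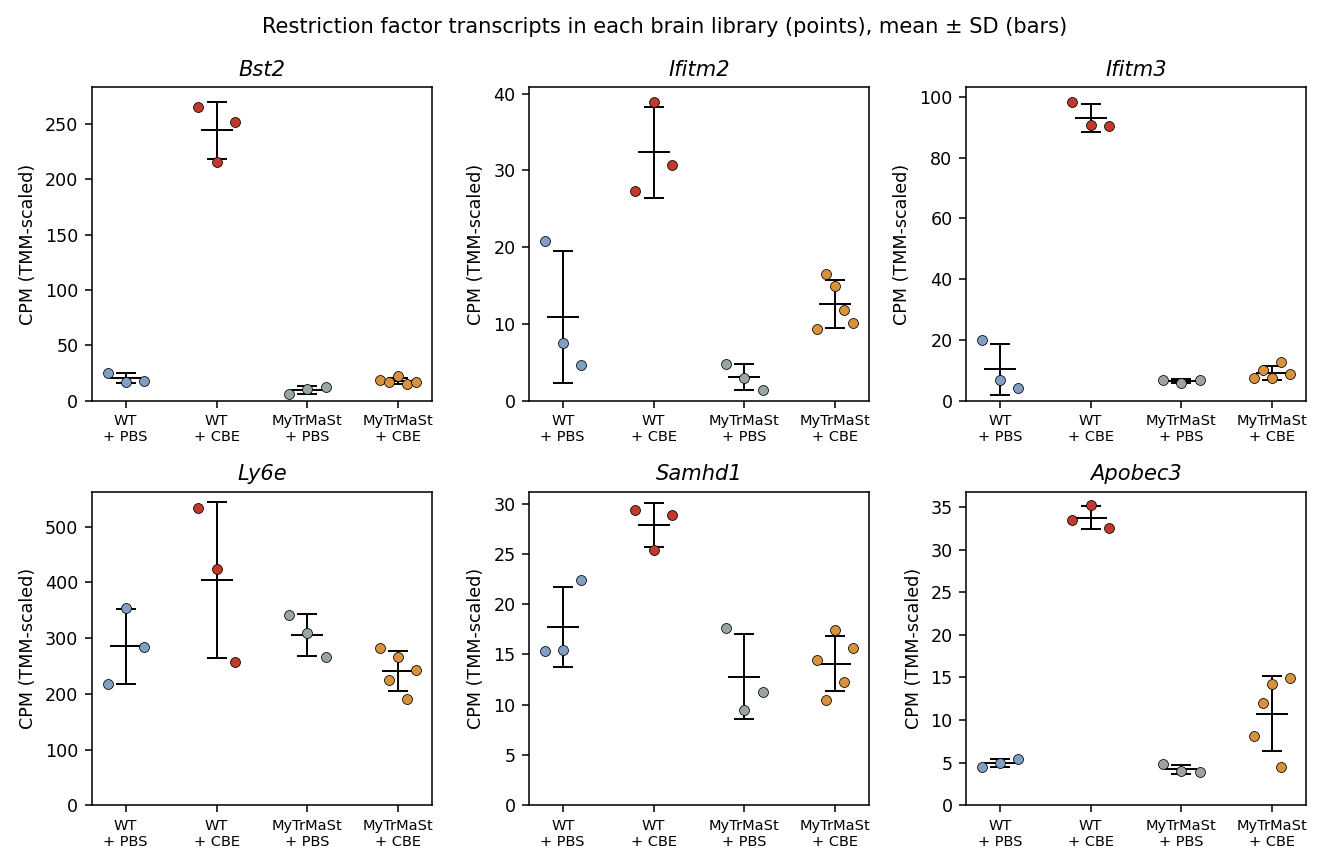
Level of each restriction factor, in CPM on TMM-scaled library sizes and on linear axes from 0, in the 4 groups named below each panel. Points are single libraries (n = 3, 3, 3 and 5) and bars the mean ± SD. The 3 WT + CBE libraries lay above every other library for Bst2, Ifitm3, Apobec3, Samhd1 and, from 27.3 CPM upward, Ifitm2, while the Ly6e groups overlap.

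Bst2, the tether that keeps budded virus on the membrane, lies on chromosome 8 from 71534255 to 71537456 on the minus strand (GRCm38, the build also called mm10). Its levels were 25.3, 17.1 and 17.7 CPM in WT + PBS and 265, 215 and 251 CPM in WT + CBE. In MyTrMaSt + PBS they were 5.87, 10.6 and 12.3 CPM. In MyTrMaSt + CBE they were 18.7, 16.5, 22.3, 14.8 and 17.2 CPM. The 3 WT + CBE libraries stood far above all others, and the CBE-treated null mice lay in the range of untreated WT mice or just below it. The log2 fold change in WT was 3.66 ± 0.23 (SE; edgeR adjusted p = 4.72e-09), the fifteenth smallest p of all tested genes.

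The Ifitm genes encode small membrane proteins that hinder fusion of enveloped viruses with endosomal or surface membranes. Ifitm3 (chromosome 7, 141009586 to 141010770, minus strand) was measured at 19.9, 6.91 and 4.22 CPM in WT + PBS, and at 98.3, 90.6 and 90.4 CPM after CBE. MyTrMaSt + PBS gave 6.91, 5.81 and 6.69 CPM and MyTrMaSt + CBE gave 7.40, 10.1, 7.29, 12.8 and 8.61 CPM. The WT + CBE libraries were close together and separate, while the highest WT + PBS value came from replicate 1. The log2 fold change in WT was 3.42 ± 0.33 (adjusted p = 8.43e-07). It ranged from 3.05 (without WT + PBS replicate 3) to 4.01 (without WT + PBS replicate 1) when 1 library was left out.

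Ifitm2 (chromosome 7, 140954837 to 140955987, minus strand), which lies in the same gene cluster with Ifitm1 between it and Ifitm3, is described next. It gave 20.8, 7.46 and 4.64 CPM in WT + PBS and 27.3, 39.0 and 30.7 CPM in WT + CBE. In MyTrMaSt + PBS it gave 4.83, 2.91 and 1.41 CPM, from 4 to 14 counts per library, and in MyTrMaSt + CBE 9.35, 16.5, 14.99, 11.8 and 10.2 CPM. Within each genotype every CBE library lay above every PBS library. The log2 fold change in WT was 1.78 ± 0.39 (adjusted p = 0.00566). Leaving out 1 library gave 1.42 (WT + PBS replicate 3) to 2.36 (WT + PBS replicate 1). With only the WT libraries in the fit it was 1.76 and lost its call (adjusted p = 0.0874). Reads that fit Ifitm2 and Ifitm3 equally were dropped from the deposited counts, since only uniquely mapped reads were kept. Of 451 windows of 50 bases in the last 500 transcript bases, 20 were identical between Ifitm2 and Ifitm3. The annotated gene Gm45717 overlaps Ifitm2 on the same strand and is not among the genes listed in the table.

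Apobec3 (chromosome 15, 79891659 to 79915906, plus strand) encodes a cytidine deaminase that is packaged into retroviral particles and acts on new viral DNA. Its levels were 4.51, 4.97 and 5.48 CPM in WT + PBS, from 5 to 18 counts, and 33.5, 35.2 and 32.5 CPM in WT + CBE. MyTrMaSt + PBS gave 4.83, 3.96 and 3.87 CPM and MyTrMaSt + CBE 8.18, 12.02, 14.2, 4.43 and 14.9 CPM. The WT groups were tight and widely separated, whereas in MyTrMaSt + CBE replicate 4 remained within the PBS range. The log2 fold change in WT was 2.73 ± 0.33 (adjusted p = 1.18e-05). Cbx7, which lies on the opposite strand and overlaps the last 500 bases of Apobec3, averaged 39.4 CPM in WT + PBS and 35.8 CPM after CBE (adjusted p = 0.692), and the use of strand in counting is not stated.

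Samhd1 (chromosome 2, 157097533 to 157135265, minus strand) encodes a hydrolase that lowers the pool of deoxynucleotides available to reverse transcription. It was found at 15.3, 15.5 and 22.4 CPM in WT + PBS, and at 29.4, 25.3 and 28.9 CPM after CBE. In MyTrMaSt + PBS it had 17.6, 9.51 and 11.3 CPM and in MyTrMaSt + CBE 14.4, 10.5, 17.4, 12.3 and 15.7 CPM. The WT groups did not overlap, but the log2 fold change of 0.64 ± 0.25 did not pass (adjusted p = 0.115, 95% confidence interval 0.12 to 1.17).

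Ly6e (chromosome 15, 74955051 to 74959905, plus strand) encodes a lipid-anchored surface protein that impairs fusion of coronaviruses with the cell. Its levels were 217, 353 and 284 CPM in WT + PBS and 534, 424 and 256 CPM in WT + CBE. They were 340, 309 and 266 CPM in MyTrMaSt + PBS and 281, 224, 267, 191 and 243 CPM in MyTrMaSt + CBE. The 4 groups overlap, and the WT + CBE libraries were spread more widely than any other group (405 ± 140 CPM, SD). The log2 fold change in WT was 0.50 ± 0.23 (adjusted p = 0.184, 95% confidence interval 0.02 to 0.98).

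The 4 of 6 factors called higher in WT stand beside 5.20% of all tested genes called higher and 1.21% called lower in the same comparison, and no factor was called lower. Every WT + CBE library lay above every WT + PBS library for 5 of the 6, against 15.1% of tested genes. The median log2 fold change was 2.25 over the factors and -0.02 over all tested genes.

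The sequence just upstream of each start site was examined because the factors that rose together share interferon as a known inducer. RefSeq promoters (GRCm38.p6, 250 bases before to 50 after the start) were at hand for 5 of the 6 genes, all but Ly6e. The ISRE core GAAANNGAAA, searched on both strands, was found in 4 of them (Bst2, Ifitm2, Ifitm3 and Apobec3), against 3.45% of 32544 promoters. The GAS TTCNNNGAA was found in 3 (Bst2, Ifitm3 and Samhd1), against 8.33% of promoters. The stretches that hold these letters are given below 5′ to 3′ on the strand of the gene, with the matches in capitals. Overlapping matches run together, as in Bst2, where a GAS (-136 to -128, counted from +1 at the start) is followed by 2 overlapping ISRE cores, and in Ifitm3, where a GAS shares bases with the second core.
Bst2, chr8:71537563-71537632, minus strand: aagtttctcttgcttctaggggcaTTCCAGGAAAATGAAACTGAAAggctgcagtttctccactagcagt
Ifitm3, chr7:141010715-141010744, minus strand: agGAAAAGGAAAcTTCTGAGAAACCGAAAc
Ifitm2, chr7:140955988-140956041, minus strand: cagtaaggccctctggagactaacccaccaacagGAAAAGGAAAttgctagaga
Apobec3, chr15:79892258-79892287, plus strand: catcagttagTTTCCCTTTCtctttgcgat
Samhd1, chr2:157135297-157135346, minus strand: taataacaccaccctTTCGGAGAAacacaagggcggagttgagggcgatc
Apobec3 has 2 RefSeq promoters, of which 1 holds the core, on the reverse strand at -140 to -131. The Ifitm3 and Apobec3 stretches lie inside annotated exons and the other 3 stretches do not. Ifitm2 and Ifitm3 hold the same 10 letters GAAAAGGAAA, at -46 to -37 in Ifitm2 and at 3 to 12 in Ifitm3. A match of letters does not show that a factor binds there.

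In MyTrMaSt brain, 2 of the 6 factors were called higher, against 3.23% of tested genes called higher and 0.658% called lower. Ifitm2 rose 4.08-fold (log2 2.03 ± 0.43, adjusted p = 0.00604). Apobec3 rose 2.57-fold (log2 1.36 ± 0.32, adjusted p = 0.0119), but it lost its call without MyTrMaSt + PBS replicate 2 (adjusted p = 0.0611) or replicate 3 (adjusted p = 0.0647). Bst2 reached an adjusted p of 0.0204 with a 1.86-fold difference (log2 0.90 ± 0.23), below the fold threshold, and was called without MyTrMaSt + PBS replicate 3 (log2 1.10). Its 5 CBE libraries all lay above its 3 PBS libraries. The log2 fold changes of Ifitm3 (0.51 ± 0.34, adjusted p = 0.387), Samhd1 (0.15 ± 0.24, adjusted p = 0.744) and Ly6e (-0.34 ± 0.20, adjusted p = 0.332) did not pass. Every CBE library lay above every PBS library for 3 of the 6 factors, namely Bst2, Ifitm2 and Ifitm3, against 11.8% of tested genes. The median log2 fold change was 0.70 over the factors and 0.01 over all tested genes.

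**Figure D2:**
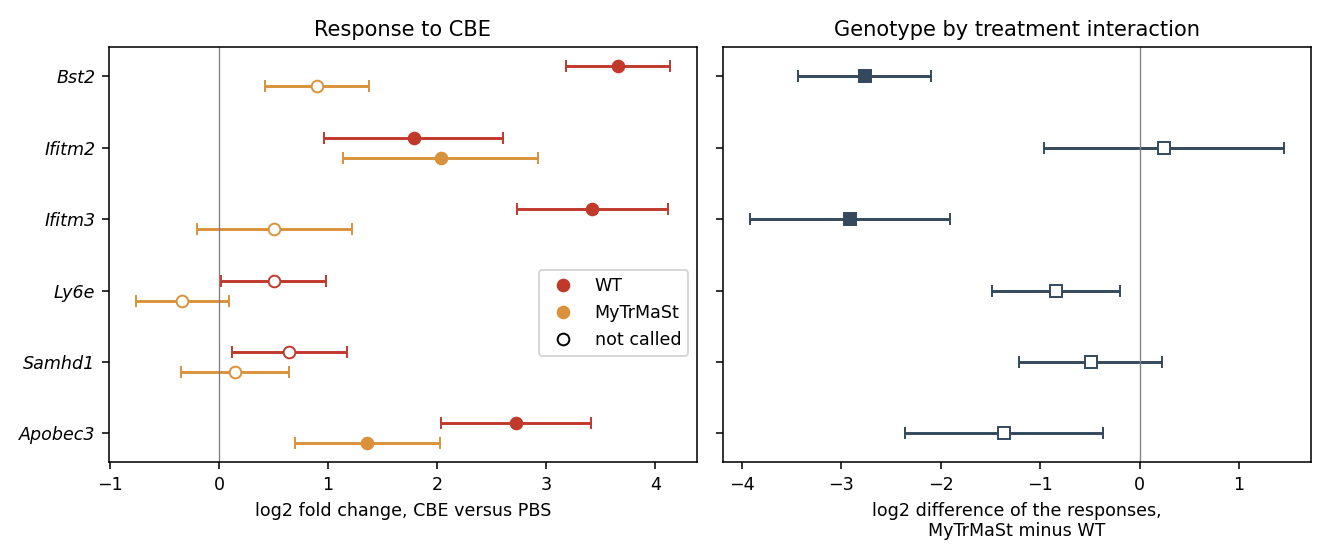
Left, log2 fold change of CBE over PBS for each factor in WT and MyTrMaSt. Right, the genotype by treatment interaction on the log2 scale (MyTrMaSt response minus WT response). Bars are 95% confidence intervals from edgeR, and filled symbols mark factors called by the test. The interaction lay wholly below 0 for Bst2, Ifitm3, Apobec3 and Ly6e before adjustment, and was called for Bst2 and Ifitm3. For Ifitm2 it lay around 0.

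The responses of the 2 genotypes were compared by the interaction term, called at an adjusted p below 0.05. The estimate was below 0 for 5 of the 6 factors and was called for 2 of these, where 0.413% of all tested genes were called below 0 and 0.0759% above. For Bst2 the MyTrMaSt response was smaller by 6.79-fold (log2 -2.76 ± 0.32, adjusted p = 0.000551), which is the second smallest interaction p of all tested genes. For Ifitm3 it was smaller by 7.53-fold (log2 -2.91 ± 0.48, adjusted p = 0.00635), with log2 values from -3.50 (without WT + PBS replicate 1) to -2.53 (without WT + PBS replicate 3) when 1 library was left out. With Xist in the model as a covariate the Ifitm3 value was -3.13 and missed the threshold (adjusted p = 0.0571). For Apobec3, which was called in both genotypes, the difference of -1.37 ± 0.47 did not pass (adjusted p = 0.272). For Ly6e it was -0.84 ± 0.31 (adjusted p = 0.293) and for Samhd1 -0.49 ± 0.34 (adjusted p = 0.559). For Ifitm2 it was 0.25 ± 0.57 (adjusted p = 0.88) with a 95% confidence interval from -0.96 to 1.46 and its sign turned without WT + PBS replicate 1 (-0.32).

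After CBE, 4 of the 6 factors were lower in MyTrMaSt than in WT, against 1.93% of tested genes called lower and 0.0759% called higher. Bst2 was 13.6-fold lower (log2 -3.76 ± 0.18, adjusted p = 2.55e-10), Ifitm3 10.1-fold lower (log2 -3.34 ± 0.26, adjusted p = 1.07e-07) and Apobec3 3.09-fold lower (log2 -1.63 ± 0.25, adjusted p = 0.000384). Ifitm2 was 2.55-fold lower (log2 -1.35 ± 0.31, adjusted p = 0.0222), so that its level after CBE was below that of WT although its fold response was not shown to differ. This call was lost without WT + CBE replicate 2 (adjusted p = 0.179) or replicate 3 (0.0711), and without MyTrMaSt + CBE replicate 1 (0.0712) or replicate 5 (0.0624). Samhd1 passed the p threshold (adjusted p = 0.0163) at 1.98-fold, just under the fold threshold. It was called when WT + CBE replicate 2 or MyTrMaSt + CBE replicate 3 or 5 was left out, which gave log2 values of -1.05, -1.07 and -1.04. It was also called with library totals alone (adjusted p = 0.0213) and with at least 10 counts in every library (log2 -1.01, adjusted p = 0.0287). Ly6e had a log2 difference of -0.75 ± 0.20 (adjusted p = 0.061). Every MyTrMaSt + CBE library lay below every WT + CBE library for 5 of the 6, all but Ly6e, against 6.02% of tested genes. The WT + CBE libraries are shared by this comparison and the WT response.

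Between the PBS groups no factor was called by edgeR, and 2 had an unadjusted p below 0.05. Of all tested genes 0.127% were called lower and 0.0337% higher. DESeq2 called 1 factor, Ifitm2 (log2 -1.71, adjusted p = 0.0284), beside 114 genes in all where edgeR called 19, and limma voom called 0 factors. Bst2 was 1.999-fold lower in MyTrMaSt + PBS (log2 -0.999 ± 0.25, adjusted p = 0.11), with all 3 null libraries below all 3 WT libraries, and was called without WT + PBS replicate 2 (log2 -1.11, adjusted p = 0.0437), a fit in which the calls over all genes rose from 19 to 303. Ifitm2 had a log2 difference of -1.60 ± 0.50 (adjusted p = 0.155), and -1.04 without WT + PBS replicate 1. The other 4 factors had log2 differences from -0.49 (Samhd1) to 0.09 (Ly6e), with adjusted p from 0.343 to 0.86.

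The factors did not form a single pattern. Over the 14 libraries, likeness was measured as the root mean square difference of log2 CPM after each gene was centred on its own mean, so that 0 is an identical profile, and this is a description without a test. Among the factors, Samhd1 and Ly6e (0.42) and Bst2 and Ifitm3 (0.56) were the closest pairs. Samhd1 and Ly6e also varied least, with SDs of log2 CPM of 0.48 and 0.38, so their 0.42 is about as large as their own variation. The SDs of Bst2 and Ifitm3 were 1.67 and 1.47. Ifitm2 was nearer to Apobec3 (0.74) than to Ifitm3 (0.87). Among all tested genes, the profile closest to Bst2 was that of Gbp3, an interferon-inducible guanylate-binding protein (0.27), followed by H2-K1, a class I histocompatibility heavy chain (0.35), and Phf11b (0.41). Ifitm3 was closest to Gbp3 (0.46), H2-D1 (0.48), another class I heavy chain, and the chemokine Cxcl16 (0.50). Apobec3 was closest to Tap2, a subunit of the peptide transporter for class I molecules (0.34), then Sash3 (0.36) and Endou (0.39). The nearest genes to Ifitm2 were the tyrosine phosphatase Ptpn18 (0.45), the mitochondrial translocator protein Tspo (0.49) and Tcirg1, a subunit of the proton pump (0.49). These 3 genes had log2 fold changes of 2.02, 2.67 and 1.37 in WT and 1.82, 1.74 and 1.90 in MyTrMaSt. Samhd1 was closest to Znfx1 (0.29), a helicase with antiviral activity, Gm7120 and Plekho1 (0.30 each). Ly6e was closest to Zcchc4, Tmem194 and Pofut1 (0.26 each).

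Other restriction factors were taken as a list of 34 genes, of which 30 were in the table and 27 were tested. In WT, 15 of the 27 were called higher and none lower by edgeR, where 5.20% of all tested genes were called higher, and 8 of the 27 were called with Xist as a covariate. In MyTrMaSt 1 was called higher, where 3.23% of all tested genes were. The list's median log2 fold change was 1.94 in WT, and 0.07 in MyTrMaSt. With genes at 3 counts or fewer in every library of a group set to 3 counts there, the medians were 1.54 (3 such genes) and 0.03 (4 such genes). The exception in MyTrMaSt was Ch25h, which makes 25-hydroxycholesterol, a sterol that alters membranes against virus entry. Ch25h rose by log2 3.65 in MyTrMaSt (adjusted p = 7.51e-06), to 20.3 CPM, and by log2 4.30 in WT, to 33.9 CPM. Mx1, a gene of the dynamin-like GTPases, gave 35 to 82 counts per library after CBE in WT and 0 to 4 in MyTrMaSt, from 1 to 2 in WT + PBS. Rsad2, viperin, gave 25 to 62 in WT after CBE and 0 to 3 in MyTrMaSt, from 1 to 4 in WT + PBS. Zc3hav1, which marks viral RNA for decay, gave 14 to 39 and 0 to 4, from 1 to 3. The interaction was called below 0 for 3 of the 27 (0.413% of all tested genes), namely the exonuclease Isg20 (log2 -3.09, adjusted p = 0.00502), Rsad2 (adjusted p = 0.00847) and the RNA-activated kinase Eif2ak2 (log2 -2.15, adjusted p = 0.0111). This count fell to 1 without MyTrMaSt + PBS replicate 3. After CBE, 14 of the 27 were lower in MyTrMaSt than in WT, as were 1.93% of all tested genes. Mx1, Rsad2, Trim34a, Zc3hav1, Slfn2 and Samd9l had 0 to 6 counts per library outside WT + CBE and were tested through that group. The calls in WT, for the interaction and after CBE, and the WT median, thus follow in part from the filter on low counts.

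**Figure D3:**
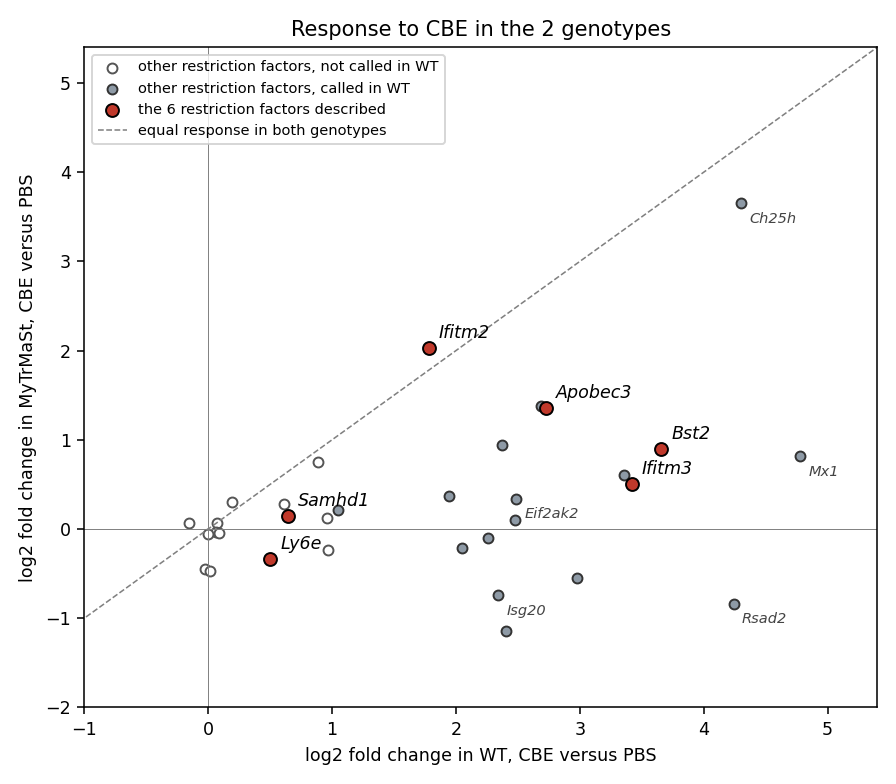
Log2 fold change of CBE over PBS in MyTrMaSt (vertical) against WT (horizontal) for the 6 factors (red) and 27 other tested restriction factors (grey when called in WT, open when not). The dashed line marks equal responses. Ifitm2 lies near the line and Ch25h below it at 4.30 and 3.65, while Bst2 and Ifitm3 lie far below it. The values of Mx1 and Rsad2 rest on groups with few counts.

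The relatives of each factor were described in the same way. Of the Ifitm family, Ifitm1 was the other member in the table, and was not called in WT (log2 0.94, adjusted p = 0.23) or MyTrMaSt (log2 0.57, adjusted p = 0.501). Of the Ly6 family, 9 of 19 genes were tested besides Ly6e. In WT, 1 was called higher and 1 lower, where 5.20% and 1.21% of all tested genes were. Ly6a was higher (log2 1.85, adjusted p = 0.000773) and Lynx1, a neuronal modulator of nicotinic receptors, was lower (log2 -1.15, adjusted p = 0.00112). The fit without WT + PBS replicate 1 called 1 of the 9 in WT. In MyTrMaSt none of the 9 was called by edgeR, DESeq2 or limma voom, with 6 at an unadjusted p below 0.05, as were 2810 of the 11852 tested genes. Apobec1, the deaminase that edits apolipoprotein B RNA, was the other tested APOBEC gene and was higher in both genotypes. Its log2 fold changes were 3.67 in WT (adjusted p = 3.00e-07) and 1.85 in MyTrMaSt (adjusted p = 0.00106). The difference of these responses, -1.82, did not pass (adjusted p = 0.14), as for Apobec3. Beside Samhd1, 15 tested genes of deoxynucleotide supply gave 1 higher and 1 lower in WT, where 5.20% and 1.21% of all tested genes were called. The 2 calls fell to 1 without WT + PBS replicate 3, any WT + CBE library or MyTrMaSt + CBE replicate 1, and to 0 with Xist as a covariate. Thymidine kinase Tk1 went from 0 to 2 counts per WT + PBS library to 5 to 19 after CBE (adjusted p = 0.003), and the dUTPase gene Dut fell by 1.08 on the log2 scale (adjusted p = 0.0294). In MyTrMaSt 0 of the 15 were called by edgeR, DESeq2 or limma voom, and 1 was called in 5 of the fits that left out a library. There edgeR called 3.23% of all tested genes higher and 0.658% lower. Of the 15, 2 had an unadjusted p below 0.05, as had 2810 of the 11852 tested genes. Samhd1 is also a gene of Aicardi-Goutieres syndrome, a hereditary interferonopathy. Of 5 other tested genes of that syndrome, Trex1 (log2 1.05, adjusted p = 0.0084) and Ifih1 (10 to 24 counts per library after CBE against 0 to 2 with PBS) were higher in WT, where 5.20% of all tested genes were. The count fell to 1 without WT + PBS replicate 3 or WT + CBE replicate 1 and with Xist as a covariate. In MyTrMaSt 0 were called by edgeR, DESeq2 or limma voom, with 0 at an unadjusted p below 0.05. There edgeR called 3.23% of all tested genes higher. Ifih1 had 0 to 7 counts per library outside WT + CBE and was tested through that group.

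The genes that carry the interferon signal were read beside the factors. Of 15 tested genes of the interferon receptors and their transcription factors, 6 were higher in WT, where 5.20% of all tested genes were. Irf7, which amplifies interferon production, had a log2 fold change of 4.73, Usp18, a brake on the receptor, of 4.41, and Irf9, a subunit of the complex that binds the ISRE, of 2.87. In MyTrMaSt, where edgeR called 3.23% of all tested genes higher, 0 of the 15 were called by edgeR, DESeq2 or limma voom, and 3 had an unadjusted p below 0.05. The interaction was called below 0 for Irf9 and Irf7, among others, as it was for Bst2 and Ifitm3. Its 4 calls among the 15, beside 0.413% of all tested genes, fell to 2 without WT + PBS replicate 3, WT + CBE replicate 1, MyTrMaSt + PBS replicate 1 or 3 or MyTrMaSt + CBE replicate 2 or 3, and to 0 with Xist as a covariate. The receptor chain genes Ifnar1 and Ifnar2 were not called in either genotype, with log2 fold changes of 0.19 (adjusted p = 0.589) and 0.81 (adjusted p = 0.00885, under 2-fold) in WT.

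Summed markers of microglia were higher with CBE in both genotypes. In these bulk libraries more cells of a type and more RNA per cell cannot be told apart. The summed level of 8 microglial markers ranged over 414 to 548 CPM in WT + PBS, and over 1812 to 2224 CPM after CBE. In MyTrMaSt the ranges were 368 to 393 CPM with PBS and 1037 to 1209 CPM with CBE. In WT, 5 of the 8 were called higher and in MyTrMaSt 4 of the 8, beside 5.20% and 3.23% of all tested genes. Of these, C1qa rose by log2 2.58 and 2.21, whereas P2ry12 changed by 0.05 and -0.49 (adjusted p = 0.963 and 0.384). Between the CBE groups 2 of the 8 markers, Aif1 and C1qa, were lower in MyTrMaSt, beside 1.93% of all tested genes. The interaction was called for 0 of the 8 by edgeR, with 2 at an unadjusted p below 0.05. The summed level of 6 astrocyte markers had medians of 957 and 2024 CPM in WT (PBS, then CBE) and 1007 and 1923 CPM in MyTrMaSt. In WT 2 of the 6, Gfap and Aqp4, were called higher and in MyTrMaSt 1, Gfap, beside 5.20% and 3.23% of all tested genes. Mean Gfap was 55.5 and 519 CPM in WT and 51.2 and 507 CPM in MyTrMaSt. The sum of endothelial markers ranged over 199 to 296 CPM in WT with PBS and 173 to 193 CPM with CBE. In MyTrMaSt it ranged over 194 to 212 and 145 to 213 CPM. There 1 of 7 tested endothelial markers, Tek, was called lower (log2 -1.35, adjusted p = 0.00442), beside 0.658% of all tested genes. The sum of 6 neuronal markers was 2916 CPM in WT + PBS replicate 1 and 4362 and 4364 CPM in the other two WT + PBS libraries, against 3215 to 3460 CPM in WT + CBE. In MyTrMaSt it was 4468 to 5364 CPM with PBS and 3489 to 4072 CPM with CBE. The sum of 6 markers of pericytes and smooth muscle was 153 to 188 CPM with PBS and 145 to 170 CPM with CBE in WT, and 192 to 225 and 149 to 180 CPM in MyTrMaSt. The interaction was called by edgeR for 0 of the 6 tested neuronal markers, with 1 at an unadjusted p below 0.05, and for 0 of the 4 tested pericyte markers, with 0 at that level. Of these 4 pericyte markers 1, Rgs5, was called lower in each genotype, beside 1.21% (WT) and 0.658% (MyTrMaSt) of all tested genes. Its log2 fold changes were -1.28 in WT (adjusted p = 0.0318) and -1.38 in MyTrMaSt (adjusted p = 0.00529). Kcnj8 and Vtn were lower and Pdgfrb higher in both genotypes without a call. The sum of 6 oligodendrocyte markers did not overlap in WT, at 16661 to 19985 CPM with PBS and 10079 to 13102 CPM with CBE, and was 16485 to 19777 against 12393 to 16616 CPM in MyTrMaSt, with no single marker called. The sum of 3 blood monocyte markers in the table did not overlap in WT, at 1.80 to 11.8 CPM with PBS and 13.9 to 17.4 CPM with CBE. Of the 2 that were tested, F13a1 was called higher in WT (log2 2.14, adjusted p = 0.0226) and Vcan was not (log2 0.11, adjusted p = 0.915). In MyTrMaSt that sum was 7.93 to 10.6 CPM with PBS and 10.5 to 19.2 CPM with CBE. The part of these shifts in the levels of the restriction factors was not tested.

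**Figure D4:**
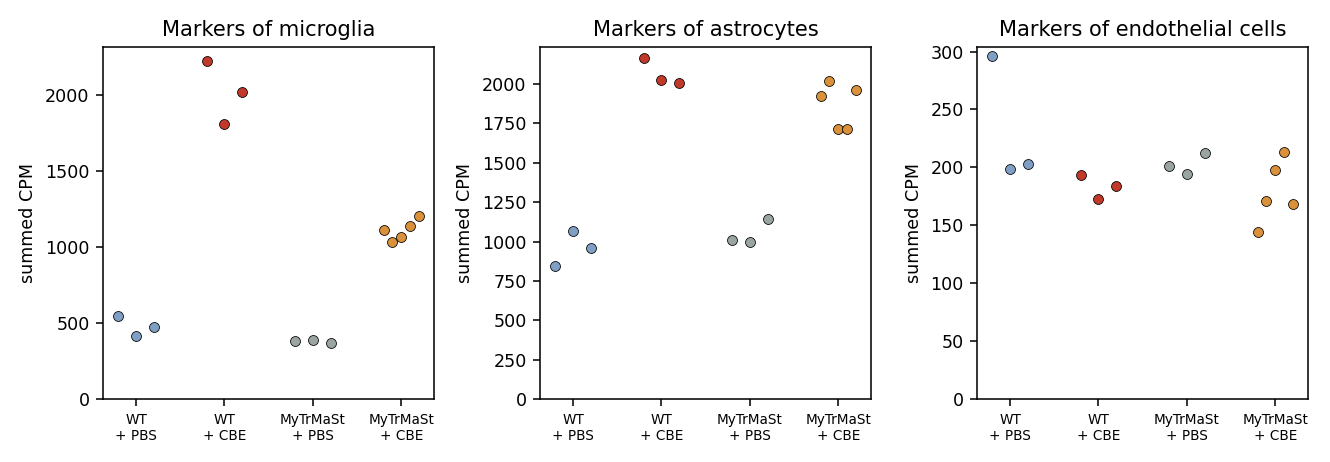
Summed CPM of the markers of microglia (8 genes), astrocytes (6) and endothelial cells (8) in every library of the 4 groups, on linear axes from 0. Points are single libraries. Microglial and astrocyte markers were higher in every CBE library than in every PBS library of both genotypes, and the microglial sum in MyTrMaSt + CBE (1037 to 1209) lay between that of the PBS groups and that of WT + CBE.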

How the data were processed

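Bulk MARSseq libraries, which read transcript 3' ends, were made by the authors from RNA of brain homogenates, sequenced on a NextSeq 500 and mapped with hisat to mm10, keeping uniquely mapped reads. The submitters' processing notes name cutadapt and HTSeq without version. Annotation, strand and use of molecular identifiers are not given in the sources used here. The deposited values are raw counts, whole reads per gene. The authors' normalized values and their fold changes and p-values were not used.

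Tests were run with edgeR 4.0.16 in R 4.3.3 (filterByExpr on the 4 groups, TMM scaling, a quasi-likelihood fit of 4 group means to all 14 libraries, Benjamini-Hochberg adjustment over 11852 genes). Groups came from the labels. Called genes differed at least 2-fold at an adjusted p below 0.05, the thresholds the study states. The interaction had no fold threshold. Levels are CPM, with library sizes scaled by TMM, and log2 CPM for the likeness of profiles used a prior count of 2. Named genes were the 6 factors, the 3 tested genes most like each, and up to 4 called genes per list with the highest fold change, beside genes named for a count of 5 or fewer, as markers, as deleted or overlapping genes, or as receptor chains (Ifnar1 and Ifnar2), which were chosen after their values were seen. One gene that this rule names is not reported here. Znfx1 stands in both the list and the nearest genes. The members and lists were chosen with earlier results of these data known. The fit was tested on simulated counts. No 2 libraries were identical (chi-square per degree of freedom 2.45 to 22.4 over 19 pairs of the same group). Separate mice are implied by the study's methods, and p-values measure the spread between these libraries. Counting error on the factors ran from 2.34% to 50.0% of a library's value and is a lower limit, since amplified copies are not independent.

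Alternatives were RLE factors, library totals, DESeq2 1.42.0, limma 3.58.1 voom, other filters, only the groups compared, a replicate block, Xist as a covariate and leaving out each library. Positions came from GENCODE M21 (GRCm38), and promoters from RefSeq (GRCm38.p6).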

Additional observations from a re-analysis of the deposited data

Results flagged for a closer look

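The response to CBE differed between the genotypes for 2 of the 6 restriction factors by the test of the difference itself (edgeR interaction term, adjusted over all tested genes). For Bst2 the MyTrMaSt response minus the WT response was -2.76 on the log2 scale (adjusted p = 0.000551). In WT every CBE library was at least 215 CPM and every PBS library at most 25.3 CPM, whereas in MyTrMaSt no library passed 22.3 CPM. For Ifitm3 the difference was -2.91 (adjusted p = 0.00635), with 90.4 to 98.3 CPM in WT + CBE and 7.29 to 12.8 CPM in MyTrMaSt + CBE. With Xist as a covariate the Ifitm3 difference was -3.13 and was not called (adjusted p = 0.0571). In MyTrMaSt + CBE no library stood apart from the rest of its group for any of the 6 factors by Dixon's criterion, which was not applied to the groups of 3.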

How the results depend on the processing

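Over 9 other settings and 14 fits that each left out 1 library, 651 values of the 6 factors kept their direction and their side of the threshold, 9 lost the call, 8 gained it and 6 turned sign, none of the last having been called. With at least 10 counts in every library, Ifitm2 and Apobec3 were no longer tested, and the factors called fell to 2 in WT and 0 in MyTrMaSt. With Xist as a covariate the interaction was called for 1 factor. Over all genes that fit called 596 in WT (759 as reported) and 9 for the interaction (58 as reported). DESeq2 called 1 factor between the PBS groups. Over all genes, the counts called ranged over 261 to 827 in WT (759 as reported), 166 to 527 in MyTrMaSt (461), 9 to 133 for the interaction (58), 47 to 260 after CBE (238) and 3 to 114 in PBS (19) across the settings that kept every library. Without 1 library they ranged over 613 to 900, 316 to 583, 24 to 105, 199 to 273 and 5 to 303, the last without WT + PBS replicate 2 (62 without replicate 3). The replicate block gave 4 factors in WT, 2 in MyTrMaSt, 2 for the interaction, 3 after CBE and 0 in PBS. It took the call of Ifitm2 after CBE (adjusted p = 0.27). Deviations of same-numbered libraries from their group means correlated at r from -0.19 to 0.18 over 18 pairs, 3 above 0.1. Libraries of different number gave -0.24 to 0.24 over 54 pairs, 5 above 0.1. With 3 to 5 libraries per group these ranges cannot decide whether the numbers pair the mice. Leaving out 1 library gave 4 to 4 factors in WT, 1 to 2 in MyTrMaSt (1 without MyTrMaSt + PBS replicate 2), 2 to 2 for the interaction, 3 to 5 after CBE and 0 to 1 in PBS (1 without WT + PBS replicate 2). Signs turned without 1 library for Samhd1 in MyTrMaSt (-0.031 to 0.45, negative without MyTrMaSt + PBS replicate 2), for the Ifitm2 interaction (-0.32 to 0.69, negative without WT + PBS replicate 1 and, at -0.059, without MyTrMaSt + PBS replicate 3) and, between the PBS groups and without WT + PBS replicate 1, for Ifitm3 (-0.81 to 0.14) and Ly6e (-0.073 to 0.28). Ly6e also turned there with Xist as a covariate (-0.038). The cause was not tested. Among the other restriction factors, 15 of 27 were called in WT as reported and 8 of 27 with Xist as a covariate. With at least 10 counts in every library 2 of the 8 then tested were called, and these need not be among the 15. With that minimum the count after CBE went from 14 to 2 and that for the interaction from 3 to 0. Depth limits Ifitm2 and Apobec3 most, with 4 to 27 and 5 to 18 counts per PBS library.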
